A study of Mus musculus with 6 samples.

Results

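The alpha and beta globin genes encode the protein chains of haemoglobin. They were taken as every gene of the deposited table whose symbol begins with Hba- or Hbb-, which gave 7 of 20280 genes: Hba-x and Hba-a2 on the alpha side, and Hbb-y, Hbb-bh1, Hbb-bh2, Hbb-bs and Hbb-bt on the beta side. No gene is listed under the symbol Hba-a1, so Hba-a1 was not analysed here. RNA had been sequenced from FVB/N mouse embryos at E8.5, in 3 libraries of Tip55+/+ embryos (wild type) and 3 of homozygous Tip55 Δ/Δ embryos (mutant). The Tip55 Δ/Δ embryos carry in all cells a germline allele, in which exons of Kat5 are fused so that the Tip55 splice isoform of this acetyltransferase is lost and the other isoforms are kept. Whether a library came from a single embryo or a pool, and whether the yolk sac was kept, is not given in the sources used here.

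The table holds a pair of fold values per gene and no value per library. That pair was solved for the mean normalized count of the gene in either genotype, and every level below is such a mean over 3 libraries. The spread between embryos could therefore not be measured and no test over embryos was made. Each ratio of mutant over wild type means is given with a 95% exact (Clopper-Pearson) binomial interval, taken from the counts added up over 3 libraries, which covers counting error only. "Lower" and "higher" describe these means. The recovered means summed to 48535500 normalized counts in wild type and 46603400 in mutant embryos, and the size factors of the 6 libraries ranged from 0.814 to 1.33. Kat5, summed over its isoforms, had means of 2218 and 1615, a ratio of 0.728 (interval 0.702 to 0.756). That sum says nothing of the Tip55 isoform alone.

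As background, haemoglobin is a tetramer of alpha-type and beta-type chains, each holding a haem group that binds oxygen. The first red cells of the mouse arise in the blood islands of the yolk sac and are known as primitive erythroid cells. They make the embryonic chains zeta (Hba-x), epsilon y (Hbb-y) and beta h1 (Hbb-bh1) together with the adult-type alpha chain, whereas the adult-type beta chains of Hbb-bs and Hbb-bt belong mainly to the definitive red cells that appear later. A distant enhancer region drives the genes of each cluster, and the transcription factors Gata1 and Klf1 act on both clusters.

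In the annotation of GRCm38 the alpha cluster lies at chr11:32276400-32300873, on the plus strand, and the beta cluster at chr7:103812524-103853216, on the minus strand. Stretches upstream of the RefSeq transcription starts (GRCm38.p6) are shown for 4 of the genes, an embryonic and an adult-type gene of either chain. Capitals mark matches on either strand to the motifs searched, which were the GATA sites (AGATAA with AGATAG, and TGATAA with TGATAG), the CACCC type site CCNCNCCC, the CCAAT box and the TATA type box ATAAA. For Hba-x, whose longest GENCODE transcript begins further upstream, 30 bases around the GATA match are given (chr11:32276480-32276509, plus strand). For the others, bases that a GENCODE transcript holds as untranslated were left out, which leaves 117 of Hba-a2 (chr11:32296372-32296488, plus strand), 111 of Hbb-y (chr7:103853217-103853327, minus strand) and 83 of Hbb-bs (chr7:103827929-103828011, minus strand). Relative to the start they span -120 to -91 in Hba-x, -120 to -4 in Hba-a2, -120 to -10 in Hbb-y and -83 to -1 in Hbb-bs. Matches outside these spans are not shown, among them the GATA sites of Hba-a2, Hbb-y and Hbb-bs. The capitals can therefore not be compared between the genes.
Hba-x: tgttgctggctcTGATAAcaggctccaccc
Hba-a2: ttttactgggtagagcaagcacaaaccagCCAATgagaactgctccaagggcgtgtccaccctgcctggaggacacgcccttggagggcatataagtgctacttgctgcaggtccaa
Hbb-y: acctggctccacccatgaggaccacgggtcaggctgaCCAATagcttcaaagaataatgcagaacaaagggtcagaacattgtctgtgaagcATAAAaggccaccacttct
Hbb-bs: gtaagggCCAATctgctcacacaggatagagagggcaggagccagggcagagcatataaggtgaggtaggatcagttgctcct

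Promoters of 6 of the 7 genes were matched by symbol (not Hbb-bh1), and 250 bases upstream of each start were searched. A GATA site was found in 5 of 6 (Hba-x, Hba-a2, Hbb-y, Hbb-bh2 and Hbb-bs), against 26.5% of 32851 promoters of the same length. CCAAT was found in 4 of 6 (Hba-a2, Hbb-y, Hbb-bs and Hbb-bt), against 33.8%. ATAAA was found in 4 of 6 (Hba-x, Hbb-y, Hbb-bh2 and Hbb-bt), against 37.3%, and in Hbb-y and Hbb-bh2 an ATAAA match overlaps the GATA match. The only match of Hbb-bh2 lies at -165 to -161 from the start. Hba-a2 and Hbb-bs lack ATAAA but hold catataa in the stretches printed above, so this motif can miss a TATA-like stretch. The CACCC type motif was found in Hba-x, Hbb-bs and Hbb-bt, 3 of 6, against 45.9%. Hba-a2 and Hbb-y lack this motif but hold ccaccc in the stretches printed above, so the motif can miss a CACCC stretch. These matches are a description of letters and not of binding.

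The globin genes were far lower in mutant embryos. Their summed mean was 123963 normalized counts in wild type and 8565 in mutant embryos, a ratio of 0.0691 (interval 0.0682 to 0.0700), or 14.5-fold lower. They took 0.255% of all recovered counts in wild type and 0.0184% in mutant embryos. Of the 6 globin genes that reached a mean of 10 normalized counts in either genotype, 5 were at least 2-fold lower, where 1.95% of the 15924 genes with such a mean were. At least 10-fold lower were 4 of the 6, where 0.132% of all these genes were, that is 21 genes. Since the RNA was not separated by cell type, fewer red cells and less globin RNA per red cell cannot be told apart.

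Hba-x, the embryonic alpha-type (zeta) gene, had the highest level of the 7 in both genotypes. It lies at chr11:32276400-32278116 and had a mean of 60879 normalized counts in wild type and 4460 in mutant embryos, a ratio of 0.0733 (interval 0.0720 to 0.0746). A mean of 3 libraries bounds each one of them, since none can exceed 3 times the mean. No mutant library can thus have held more than 13379 normalized counts of Hba-x, and the wild type mean was 4.55 times that limit. Here and below, this sets mutant libraries against the wild type mean only. How low a single wild type library lay is not known.

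Hba-a2, one of a pair of adult-type alpha genes, lies at chr11:32296489-32297298. Its mean was 20553 normalized counts in wild type and 1240 in mutant embryos, a ratio of 0.0603 (interval 0.0584 to 0.0624). The highest value possible for a mutant library was 3721, and the wild type mean was 5.52 times as high. The reading frame of Hba-a2 is 99.8% identical to that of Hba-a1 over 429 bases, and 74.5% of all stretches of 100 bases in its transcript also occur in that of Hba-a1. The value listed for Hba-a2 may therefore hold reads of Hba-a1, and how much was not tested.

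Hbb-y, the embryonic epsilon-type beta gene, had the lowest ratio of the 7. It lies at chr7:103851749-103853216, with means of 14486 normalized counts in wild type and 827 in mutant embryos, a ratio of 0.0571 (interval 0.0548 to 0.0594). Hbb-bh1, the other embryonic beta gene, lies at chr7:103841637-103843164 and had means of 27701 and 1914, a ratio of 0.0691 (interval 0.0672 to 0.0710). The wild type means of Hbb-y and Hbb-bh1 were 5.84 and 4.82 times the highest value possible for a mutant library. Neither transcript shares a stretch of 50 bases with another globin transcript examined, and the same holds for Hba-x.

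The adult-type beta genes had few counts. Hbb-bs, at chr7:103826534-103828096, had a mean of 320 normalized counts in wild type and 103 in mutant embryos, a ratio of 0.322 (interval 0.283 to 0.367). Its wild type mean was 1.03 times the highest value possible for a mutant library, 309, and 0.993 times that limit once both genotypes were scaled to equal sums, so for Hbb-bs this bound does not place every mutant library below the wild type mean. Hbb-bt, at chr7:103812524-103813996, had means of 20.8 and 20.0, a ratio of 0.966 (interval 0.667 to 1.40). A difference in Hbb-bt was not detectable at this depth, with 62.3 and 60.1 summed normalized counts, and its interval lies above that of Hbb-bs. The reading frames of Hbb-bs and Hbb-bt are 99.8% identical over 444 bases and 62.6% of the 100-base stretches of Hbb-bs occur in Hbb-bt, so how the reads were divided between them is uncertain. Summed, both genes had means of 340 and 123, a ratio of 0.362 (interval 0.320 to 0.408), and the wild type mean of the sum was 0.922 times the highest value possible for a mutant library.

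Hbb-bh2, a further beta-like gene of the cluster at chr7:103839124-103840520, was barely detected. Its means were 3.23 normalized counts in wild type and 1.42 in mutant embryos, a ratio of 0.440 with an interval from 0.0916 to 1.39, which includes 1. Neither mean could be made up of whole reads, so some reads may have been divided between Hbb-bh2 and other genes. How many was not tested.

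**Figure D1:**
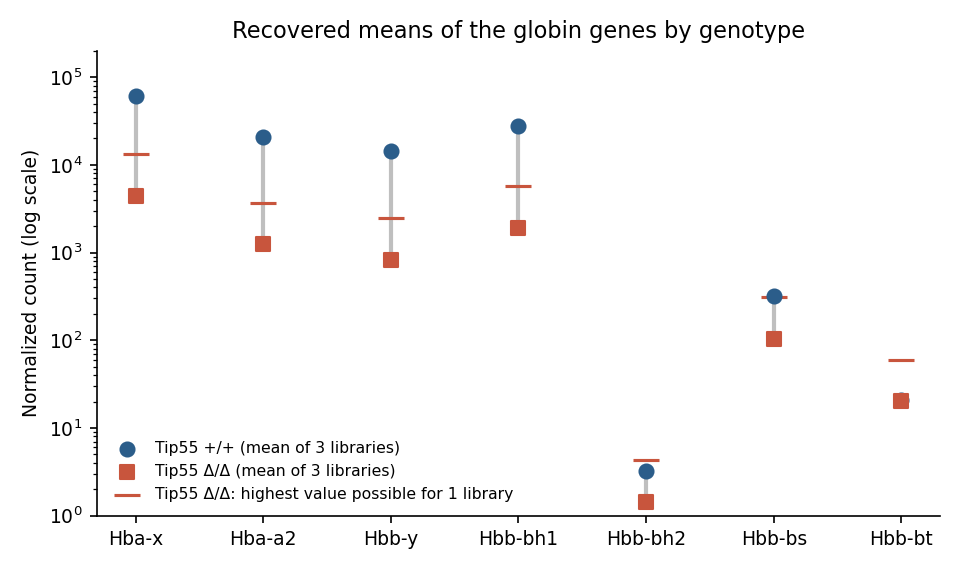
Recovered mean normalized count (log axis) of each of the 7 globin genes in wild type (circles) and mutant (squares) embryos, each over 3 libraries; the dash marks the highest value possible for 1 mutant library, which is 3 times the mean. For Hba-x, Hba-a2, Hbb-y and Hbb-bh1 the wild type mean is 4.55 to 5.84 times the dash, and for Hbb-bh2 and Hbb-bt below it. For Hbb-bs the ratio to the dash is 1.03, or 0.993 with both genotypes scaled to equal sums. Single wild type libraries are not known and may lie below the dash.

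Levels of different genes were compared per transcript length, as TPM computed from the recovered means and the longest annotated protein-coding transcript. For Hba-x that transcript, of 801 bases, begins upstream of the RefSeq start. How a shorter one would change the values per length was not tested. On this scale Hba-x stood at 3713 TPM in wild type embryos, rank 19 among all genes, and at 290 TPM in mutant embryos, rank 523. Hbb-bh1 had 2207 and 162 TPM (ranks 60 and 1008), Hba-a2 had 1812 and 116 TPM (ranks 86 and 1469), and Hbb-y had 1118 and 68.0 TPM (ranks 125 and 2637). Below these abundant genes, Hbb-bs had 24.9 and 8.54 TPM, Hbb-bt 1.44 and 1.48 TPM, and Hbb-bh2 0.283 and 0.133 TPM. The order of the 7 genes by TPM was the same in both genotypes.

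The ratios of the abundant globin genes lay close together, and some differed beyond counting error. The intervals of Hbb-y and Hba-a2 overlap, those of Hba-a2 and Hbb-bh1 do not, and that of Hba-x lies above the other three. These steps do not follow chain type, since the lowest pair holds an embryonic beta and an adult-type alpha gene. Whether they exceed the spread between embryos was not measurable. With the trend of the ratios on transcript GC content removed, Hba-a2 (56.9% GC) had a ratio of 0.0667 and Hbb-bh1 (46.8% GC) one of 0.0677, so that step nearly closes. Hba-x (55.7% GC) then had a ratio of 0.0794, and Hbb-y (48.8% GC) had 0.0566.

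Embryonic and adult-type genes were compared first as sums. The embryonic genes Hba-x, Hbb-y and Hbb-bh1 had a summed mean of 103066 normalized counts in wild type and 7200 in mutant embryos, a ratio of 0.0699 (interval 0.0689 to 0.0708). The adult-type genes Hba-a2, Hbb-bs and Hbb-bt had 20893 and 1363, a ratio of 0.0652 (interval 0.0632 to 0.0674). Hba-a2 made up nearly all of that second sum. The embryonic share of globin counts was 83.1% (interval 83.0% to 83.3%) in wild type and 84.1% (83.6% to 84.5%) in mutant embryos. With Hba-a2 left out the shares were 99.7% and 98.3%, so the direction of the small shift turns with this single gene.

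The comparison differed between the chains. Among alpha counts, the embryonic gene Hba-x took 74.8% (interval 74.6% to 74.9%) in wild type and 78.2% (77.6% to 78.9%) in mutant embryos. Among beta counts, the embryonic genes took 99.2% (99.1% to 99.2%) and 95.7% (95.2% to 96.1%). The adult-type genes Hbb-bs and Hbb-bt correspondingly took 0.800% (0.752% to 0.851%) of beta counts in wild type and 4.29% (3.87% to 4.74%) in mutant embryos. Their level was itself lower in mutant embryos, and their share was larger, the embryonic beta genes being lower still, at 0.0650 (0.0635 to 0.0664) of the wild type mean. Within the embryonic beta genes, Hbb-bh1 took 65.7% (65.4% to 65.9%) and 69.8% (68.8% to 70.8%).

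Alpha and beta genes stood in nearly the same proportion in both genotypes. Alpha genes had a summed mean of 81432 normalized counts in wild type and 5700 in mutant embryos, a ratio of 0.0700 (interval 0.0689 to 0.0711). Beta genes had 42531 and 2865, a ratio of 0.0674 (0.0659 to 0.0689), so the intervals almost touch. The alpha share of globin counts was 65.7% (65.5% to 65.8%) and 66.5% (66.0% to 67.1%). Per length of the same longest transcripts, alpha over beta was 1.65 in wild type and 1.69 in mutant embryos. With the GC trend removed the alpha and beta ratios were 0.0762 and 0.0664, further apart than without that step. The near equality of the proportions thus depends on the processing.

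**Figure D2:**
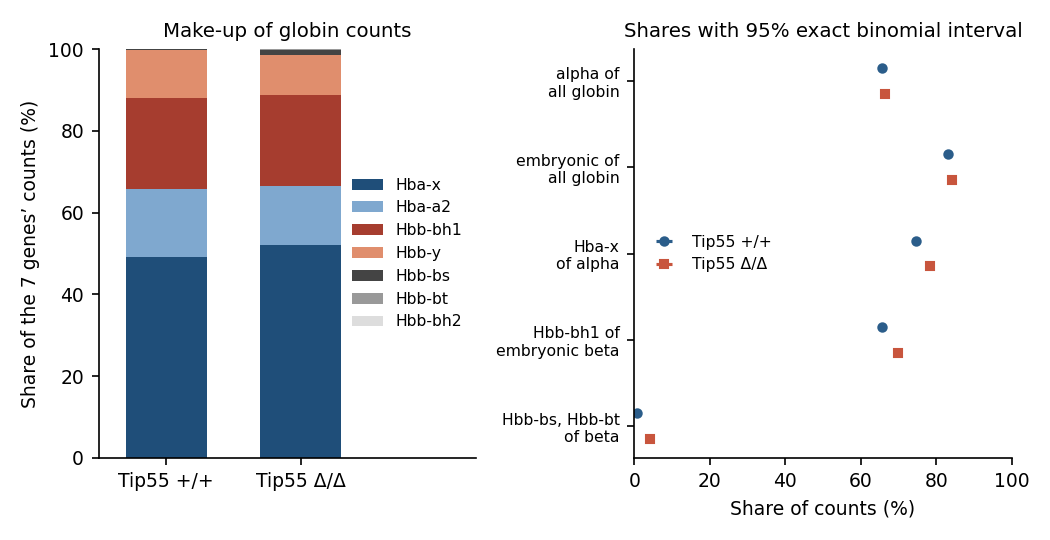
Left, share of the summed counts of the 7 globin genes (%) taken by each gene in wild type and mutant embryos; right, shares within classes (%) with 95% exact binomial intervals, most of them narrower than the symbols. Alpha genes held 65.7% and 66.5% of globin counts, whereas the share of Hbb-bs and Hbb-bt in beta counts was 0.800% and 4.29%.

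The theta genes Hbq1a and Hbq1b sit inside the alpha cluster. Hbq1b, between Hba-x and Hba-a2, had means of 34.8 normalized counts in wild type and 3.32 in mutant embryos, a ratio of 0.0954 (interval 0.0448 to 0.184). Hbq1a had 3.22 in wild type and 0 in mutant embryos, and counting error allows a ratio of up to 0.446. Globin genes elsewhere in the genome did not have lower means. Cygb, cytoglobin of connective tissue cells, had 91.0 and 111 (ratio 1.22, interval 1.03 to 1.43), and Ngb, neuroglobin, had 4.42 and 11.9 (ratio 2.69, interval 1.43 to 5.69). Mb, muscle myoglobin, had 5.93 and 7.65 (ratio 1.29, interval 0.660 to 2.51).

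Genes next to the clusters were examined over 250 kb to either side. On the alpha side 10 other genes were listed, 8 of them with a mean of 10 or more, and none of the 8 was past 2-fold in either direction. Nprl3, whose introns hold the main alpha globin enhancers and which was the nearest listed neighbour at 8.69 kb from the cluster, had means of 1297 in wild type and 1067 in mutant embryos, a ratio of 0.823 (interval 0.785 to 0.862). Mpg, a DNA glycosylase, had a ratio of 0.876, Rhbdf1 one of 0.835 and Snrnp25, of the minor spliceosome, one of 0.870. On the far side, Sh3pxd2b had the lowest ratio of the neighbours, 0.665 (interval 0.649 to 0.681). Ubtd2 and Stk10 had ratios of 0.988 and 0.979, and Nsg2 had means of 881 in wild type and 883 in mutant embryos. Around the beta cluster 2 genes were listed, both olfactory receptors with means below 10.

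**Figure D3:**
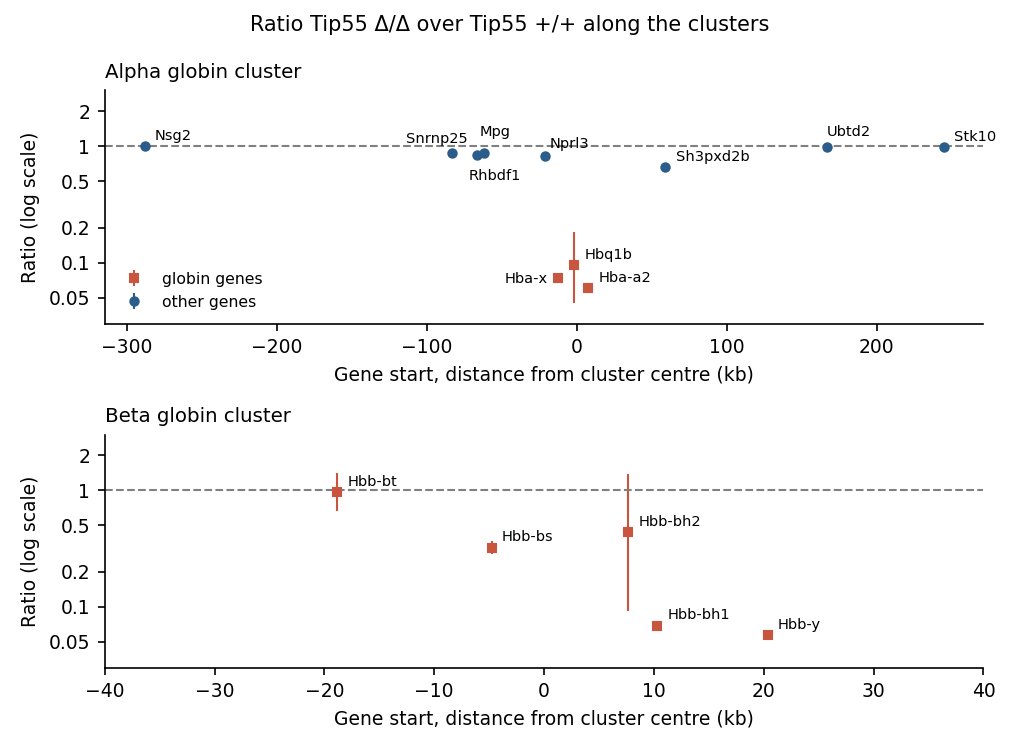
Ratio of mutant (Tip55 Δ/Δ) over wild type (Tip55+/+) means (log axis) against the distance of each gene's start from the centre of the alpha (top) and beta (bottom) cluster in kb; squares are globin genes with a ratio above 0 (Hbq1a, at 0 in mutant embryos, is not drawn), circles are neighbours with a mean of at least 10, and bars are 95% intervals of counting error. Hba-x, Hbq1b and Hba-a2 lie between 0.0603 and 0.0954 while the lowest of the 8 neighbours lies at 0.665.

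Most red cell membrane genes had lower means too. In a list of 12 red cell membrane and surface genes, all had a mean of at least 10 in either genotype. Rhd, with 34.8 in wild type and 8.46 in mutant embryos, reached it only in wild type. Of the 12, 10 were at least 2-fold lower and none higher. The median ratio was 0.166, where the median over all 15924 genes was 0.998. Of those 15924 genes, 1.95% were at least 2-fold lower. Rhag, of the Rh complex, had the lowest ratio of that list, with means of 207 in wild type and 14.6 in mutant embryos (0.0705, interval 0.0510 to 0.0963). Aqp1, a water channel that endothelium also expresses, had the highest, with 61.0 and 83.9 (1.37, interval 1.13 to 1.68). Of these 12 genes, 11 had an interval above that of the summed globin genes and only that of Rhag overlaps it.

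Haem is made in step with the globin chains. Of 13 genes for haem synthesis and haemoglobin assembly, 12 were listed (Ahsp was not matched) and all 12 had a mean of at least 10. At least 2-fold lower were 2, against 1.95% of all genes with such a mean, and the list median was 0.707. Alas2, the erythroid enzyme of the first step, had means of 1285 in wild type and 107 in mutant embryos, a ratio of 0.0835 (interval 0.0743 to 0.0936), against 0.993 (0.958 to 1.03) for Urod, an enzyme of the same pathway that all cells use. The interval of each of the 12 genes lies above that of the summed globin genes.

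Among 18 regulators of globin genes, 5 were at least 2-fold lower and none higher, with a median of 0.725. Of all 15924 genes with a mean of at least 10, 1.95% were at least 2-fold lower. The list held 17 genes with a ratio below 1 and 1 above. Among all 15924 genes, 8014 had a lower and 7910 a higher mean in mutant embryos. Gata1 had means of 355 in wild type and 34.9 in mutant embryos, a ratio of 0.0982 (interval 0.0798 to 0.120). Klf1 had 527 and 52.3, a ratio of 0.0992 (0.0838 to 0.117). The lowest ratio was that of Gfi1b, an erythroid repressor, at 0.0974 (interval 0.0719 to 0.131), from 174 in wild type to 16.9 normalized counts in mutant embryos. Klf3, a repressor that binds the same CACCC type motifs as Klf1, had the highest, at 1.01 (0.976 to 1.04). Each of the 18 intervals lies above that of the summed globin genes.

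Markers of other cell types were compared in the same way. Over all 15924 genes with a mean of at least 10, 310 were at least 2-fold lower and 385 higher. Counting any difference, 8014 of the 15924 were lower and 7910 higher. All 12 visceral endoderm and yolk sac genes were lower, 4 of them at least 2-fold, and their summed level was 192403 normalized counts in wild type and 119042 in mutant embryos, a ratio of 0.619. The lowest of them was Afp at 0.435 and the highest Apoc2 at 0.934. Of 8 endothelial genes 6 were lower and none was past 2-fold, from Tie1 at 0.657 to Kdr at 1.11, with a summed ratio of 0.935. The 7 cardiac genes ranged from Nkx2-5 at 0.695 to Tnnt2 at 1.57, with a summed ratio of 1.27. The 5 white blood cell genes listed, of 7, summed to 12.3 and 13.5 normalized counts, none reaching a mean of 10, with Camp at 0 and Ptprc at 0.926 in wild type embryos. Of 7 megakaryocyte genes, 2 had a mean of at least 10, Itga2b with a ratio of 0.736 and Gp1bb with one of 0.854. Gp6 and Treml1 were at 0 in mutant embryos and had no more than 1.55 in wild type embryos, where Ppbp had 0.949. Of 7 maternal decidua and uterine granzyme genes, 1 was at least 2-fold lower and 5 higher among 6 with a mean of at least 10. Those 5 reached a mean of 10 only in mutant embryos. Prl8a2, a decidual prolactin-like hormone, had 503 in wild type and 27.6 in mutant embryos. Gzmg had 1.31 and 19.9, Gzme 0.917 and 11.4, and Gzmd 0 and 12.0. Prl3c1, another prolactin-like gene, had 2.01 and 0.409. The part of yolk sac, endothelial or maternal tissue in the globin ratios was not tested.

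**Figure D4:**
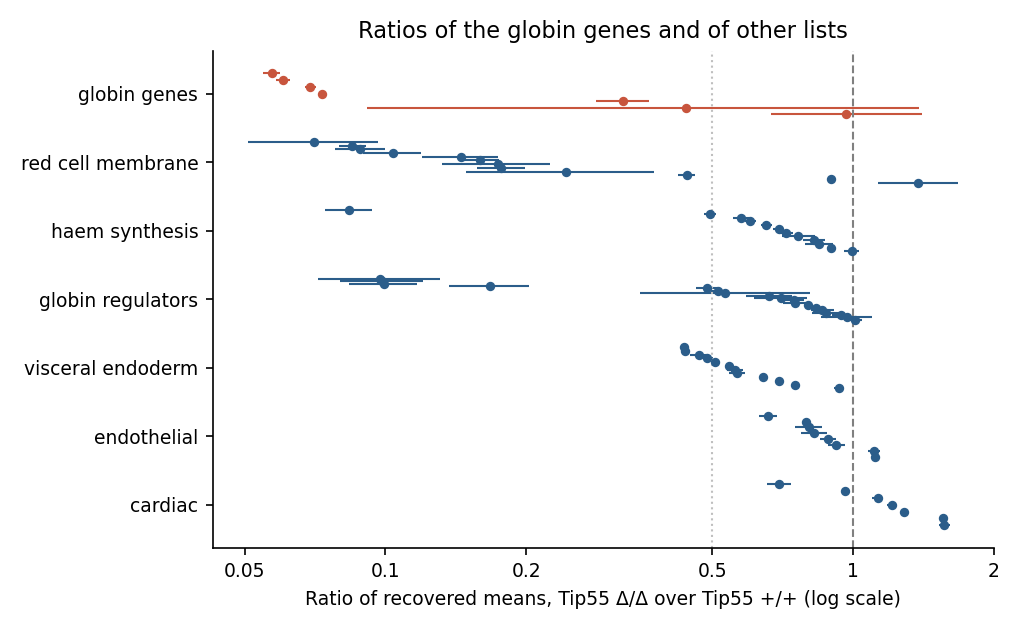
Ratio of mutant (Tip55 Δ/Δ) over wild type (Tip55+/+) means (log axis) for each of the 7 globin genes (top) and for the genes of 6 other lists with a mean of at least 10; points are genes and bars are 95% intervals of counting error, with a dashed line at 1 and a dotted line at 0.5. Hba-x, Hba-a2, Hbb-y and Hbb-bh1 lie between 0.0571 and 0.0733, Rhag at 0.0705 and the visceral endoderm genes between 0.435 and 0.934.

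The 5 other genes with a wild type mean of at least 100 whose log2 ratio came nearest to the -3.86 of the summed globin genes were Rhag (-3.83), Csf2rb (-3.80), Mir680-3 (-4.05), Redrum (-3.65) and Alas2 (-3.58). Csf2rb, a cytokine receptor chain, had means of 648 in wild type and 46.6 in mutant embryos, and Redrum, an erythroid long noncoding RNA, had 106 and 8.43. This likeness rests on a pair of genotype means per gene. Among 12321 genes other than the globins at that level, 3 (Mir680-3, Rhag and Csf2rb) had a ratio between those of Hbb-y and Hba-x, and 2 (Erv3 and Prl8a2) had a lower one. At the top of the scale, 935 genes had a wild type mean of at least 10000. Of these, 7 were at least 2-fold lower, Hba-x, Hba-a2, Hbb-y and Hbb-bh1 among them, and the lowest ratio of the rest was 0.312, of the pseudogene Gm6682. The sets at 100 and at 10000 were both taken by the wild type mean alone. These 4 globin genes reached 10000 only in wild type, with mutant means of 827 to 4460. Their standing is thus partly set by that choice and is a description only.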

How the data were processed

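RNA of E8.5 embryos was enriched for mRNA and sequenced without strand information in the BGI-seq format; per the labels and the study's methods, the authors mapped reads to mm10, counted them with RSEM and compared 3 libraries per genotype with EBSeq. The deposited values used are fold ratios, RealFC and PostFC. Columns PPEE and PPDE, the posterior probabilities of equal and of differential expression, were not used.

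RealFC adds 0.01 to both genotype means. PostFC adds a common offset, estimated here as 0.514 from 639 genes at 0 in Tip55 Δ/Δ and 591 at 0 in Tip55+/+ embryos, so both means follow. Recovery was tested on data simulated with these same formulas. That checks the solving only and cannot show that PostFC has this form. Sums leave out 37 genes whose rounding error exceeded 5%, and no globin mean had one above 0.0130%. Size factors follow from what a single read adds to a mean (59 to 88 genes each); they could not be tied to replicate labels. A mean at or under 3 summed counts per genotype is at the floor. Intervals and floors cover counting error only, since reads without molecular identifiers are not independent molecules, and they treat 3 times the normalized mean as counts.

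A ratio was called past 2-fold or 10-fold among genes with a mean of at least 10. GC trends came from lowess (span 0.3, 12450 genes with a mean of at least 100). Annotation was GENCODE M21 on GRCm38, the build of mm10, and 19996 of 20280 symbols matched. That reference genome is of C57BL/6J and the embryos were FVB/N; the effect on globin reads was not tested. Python 3.11.15, pandas 2.3.3, scipy 1.17.1, statsmodels 0.14.6, biopython 1.88 and matplotlib 3.10.9 were used.

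Named genes were all globin genes, Kat5, genes with a mean of at least 10 within 250 kb of a cluster, the lowest and highest of each list plus any at the floor, and the 5 genes nearest in ratio. Gata1, Klf1, Cygb, Mb, Gm6682 and Erv3 were chosen after their values were seen. The globin genes and lists were chosen with earlier results of these data known.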

Additional observations from a re-analysis of the deposited data

How the results depend on the processing

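No replicate could be left out, and no paired analysis was possible because the table holds 1 comparison per gene and no value per library. Summing Hba-a1 with Hba-a2, or leaving Hba-a1 out, could not be run because Hba-a1 was not analysed. The summed globin ratio, 0.0691, was 0.0720 with both genotypes scaled to equal sums and 0.0728 with the GC trend removed. Removing that trend moved the alpha ratio from 0.0700 to 0.0762 and the beta ratio from 0.0674 to 0.0664. Only Hbb-bt turned, to a ratio of 1.01 with equal sums. RealFC moved no globin ratio by more than 0.392%, and centring on the median moved each by 0.170%; PostFC moved the ratio of Hbb-bh2 by 17.4%. Per transcript length, the embryonic share was 79.3% in wild type and 80.4% in mutant embryos and the alpha share 62.2% and 62.8%; with Hba-a2 left out the embryonic shares were 99.7% and 98.3%. Genes at least 2-fold lower numbered 310 at a minimum mean of 10, 1347 with no minimum, 147 at 100 and 39 at 1000; those at least 2-fold higher numbered 385, 1684, 72 and 4. With summed reads estimated from the size factors, an alternative chosen after seeing the data, the interval bounds of Hbb-bh2 moved by up to 14.5% and those of the other globin genes by less than 1%. Rounding and either choice of offset left the values within their intervals. Depth limits Hbb-bh2 and Hbb-bt, whose intervals include 1.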
